A study of Mus musculus with 8 samples.

Results

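The Dlk1-Meg3 locus is an imprinted cluster on the distal part of mouse chromosome 12, and its level was measured here in 8 undifferentiated pleomorphic sarcomas (UPS). The 6 genes described, Dlk1, Meg3, Rtl1, Rian, Mirg and Dio3, are all rows of a table of 26667 genes whose symbol names a gene of the cluster. The set was chosen on the measured levels of these same tumours, so its difference between the groups is given as a description, without a test. Each library was made from sections of a formalin-fixed, paraffin-embedded tumour. There were 4 libraries of KP tumours, numbered 5 to 8, and 4 libraries of KPH2 tumours, numbered 1 to 4, each from its own tumour.

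Mice of both groups carried Trp53 fl/fl. KPH2 mice carried Epas1 fl/fl in addition to the alleles of KP, and the labels give their genotype as Epas1 -/- against wild type for KP. Epas1 encodes HIF-2α, the hypoxia-inducible subunit that binds DNA with ARNT. All mice were of a mixed 129/C57BL/6 background and 8 weeks old or older when adenovirus expressing Cre was injected into the gastrocnemius muscle of the hind limb, and tumours were taken 7 weeks later or at the size limit. Cre acts only in the cells that take up the virus, and a section of tumour also holds cells that did not. In bulk tumours, fewer cells of a type and less RNA per cell cannot be told apart.

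The study excluded a technical outlier among the knockouts, and KPH2 1 is absent from the authors' table over 7 tumours. The fitted differences therefore compare KPH2 2 to KPH2 4 with KP 5 to KP 8, and KPH2 1 is given apart. The libraries held 6463221 to 13155510 counts. Epas1 itself lay at 59.2, 83.2, 86.9 and 84.1 CPM in KP 5 to KP 8, at 53.4, 37.7 and 42.5 CPM in KPH2 2 to KPH2 4 and at 32.6 CPM in KPH2 1. Every KPH2 tumour was below every KP tumour for Epas1 (log2 fold change -0.81, standard error 0.19, edgeR quasi-likelihood test with Benjamini-Hochberg adjustment, adjusted p = 0.0742). CPM is the count of a gene relative to the total count of its library, here with totals scaled by the TMM factors of edgeR.

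In an imprinted cluster, each gene is read mainly from the chromosome inherited from 1 parent. At this locus the protein-coding genes Dlk1, Rtl1 and Dio3 are expressed from the paternal chromosome, while Meg3, Rian, Mirg and a long array of microRNAs and C/D-box small nucleolar RNAs (snoRNAs) are expressed from the maternal chromosome, in one orientation and largely as a continuous transcription unit that starts at Meg3. A methylated control region between Dlk1 and Meg3 keeps the chromosomes apart, and the cluster is known for its roles in embryonic growth, adipogenesis and the development and regeneration of skeletal muscle. The tables count reads per gene and do not separate the parental alleles.

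The 6 genes lie in the order Dlk1 (Entrez gene 13386, chr12:109452485-109463336), Meg3 (17263, chr12:109540996-109571729), Rtl1 (353326, chr12:109564900-109604418), Rian (75745, chr12:109603945-109661716), Mirg (100040724, chr12:109734981-109749458) and Dio3 (107585, chr12:110279230-110281097), in GRCm38 with the RefSeq gene spans. Rtl1 lies on the minus strand and the other 5 genes on the plus strand. The span of Rtl1 overlaps the end of Meg3 and the start of Rian.

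The start sites of Dlk1 and Meg3 are shown because both genes are described in each tumour below and because a hypoxia-inducible factor gene is deleted in KPH2. Both sequences are RefSeq GRCm38.p6, plus strand, 5′ to 3′, from 250 bases before to 50 bases after an annotated start. For Meg3 this is the start of the gene span given above, and for Dlk1 it lies 338 bases inside that span. Capitals mark matches, on either strand, to the core of the HIF binding site (ACGTG or GCGTG), to the cAMP response element (TGACGTCA) and to the TATA box (TATAAA).
Dlk1, chr12:109452573-109452872: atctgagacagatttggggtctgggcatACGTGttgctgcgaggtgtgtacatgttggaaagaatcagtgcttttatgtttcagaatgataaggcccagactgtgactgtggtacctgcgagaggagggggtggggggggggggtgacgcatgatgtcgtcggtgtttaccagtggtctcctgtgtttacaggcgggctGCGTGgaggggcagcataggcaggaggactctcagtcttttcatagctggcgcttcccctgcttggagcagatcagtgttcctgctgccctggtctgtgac
Meg3, chr12:109540746-109541045: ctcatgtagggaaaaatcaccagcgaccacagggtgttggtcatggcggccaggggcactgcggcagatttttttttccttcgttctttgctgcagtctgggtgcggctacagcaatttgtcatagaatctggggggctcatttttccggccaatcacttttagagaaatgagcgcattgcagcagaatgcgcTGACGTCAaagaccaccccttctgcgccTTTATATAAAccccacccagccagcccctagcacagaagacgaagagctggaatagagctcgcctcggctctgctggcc
The Dlk1 window held 1 ACGTG, beginning at base -222 from that start site, and 1 GCGTG at base -51. Of 32851 promoter windows of the same length, 43.8% held at least 1 of these core forms. The Meg3 window held neither form, and it held TGACGTCA at base -57, which 1.79% of all windows held, and overlapping TATAAA matches on both strands at bases -29 and -25, a motif in 13.6% of windows. The Dio3 window held TATAAA at base -31 and no HIF core. The windows of Rian and Mirg held none of these letters, and no window was listed for Rtl1. These matches describe the letters in the window only.

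The microRNA genes are shown by mature products of the 6 with the most counts and of 5 in the long exon of Rtl1, because these were the highest and the lowest rows of the array. Mature sequences are RefSeq, GRCm38.p6, 5′ to 3′, and capitals mark the seed, bases 2 to 8.
mmu-miR-3070-5p: aGCCCCUGaccuugaaccuggga
mmu-miR-3070-3p: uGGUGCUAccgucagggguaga
mmu-miR-3070-2-3p: uGGUGCUAuggucagggguaga
mmu-miR-493-3p: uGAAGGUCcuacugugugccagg
mmu-miR-493-5p: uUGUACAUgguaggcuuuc
mmu-miR-1188-5p: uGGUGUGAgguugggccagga
mmu-miR-453: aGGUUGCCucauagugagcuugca
mmu-miR-668-3p: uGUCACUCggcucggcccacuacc
mmu-miR-127-3p: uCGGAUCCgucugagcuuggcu
mmu-miR-136-5p: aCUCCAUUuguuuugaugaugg
mmu-miR-431-5p: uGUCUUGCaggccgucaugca
mmu-miR-433-3p: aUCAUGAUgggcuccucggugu
mmu-miR-434-3p: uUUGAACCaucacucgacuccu
Mir3070a and Mir3070b, neighbours of each other, gave 3p products that share the seed GGUGCUA, and both gave miR-3070-5p with the seed GCCCCUG. Over the locus, the 103 differently named mature microRNAs had 96 seeds, of which 7 were shared by a pair of them. The distal cluster begins with Mir379, whose arms each share a seed with another gene of the cluster:
mmu-miR-379-5p: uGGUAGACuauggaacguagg
mmu-miR-1193-5p: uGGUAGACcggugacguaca
mmu-miR-379-3p: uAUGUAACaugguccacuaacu
mmu-miR-411-3p: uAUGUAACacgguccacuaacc
The 5p products of Mir379 and Mir1193 share GGUAGAC, and the 3p products of Mir379 and Mir411 share AUGUAAC.

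Dlk1, a transmembrane protein with EGF-like repeats that is related to Notch ligands, varied more than any other member. It was at 229.3 CPM in KP 5, 45.84 in KP 6, 4.30 in KP 7 and 10.1 in KP 8. In KPH2 2, KPH2 3 and KPH2 4 it was at 1.26, 13.2 and 6.76 CPM, and in KPH2 1 it was at 227.1 CPM. KP 5 and KPH2 1 were therefore far above the other 6 tumours, at nearly the same level, and the groups overlapped. The CPM of KP 5 (3088 counts) was 182-fold that of KPH2 2 (14 counts). The SD of Dlk1 in log2 CPM over the 8 tumours was 2.63, larger than that of 99.8% of the tested genes.

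Meg3, the long non-coding RNA at the head of the maternal transcription unit, was at 686.1, 319 and 216 CPM in KP 5, KP 6 and KP 7 and at 152 CPM in KP 8. In KPH2 2 to KPH2 4 it was at 46.0, 210.2 and 81.0 CPM, and KPH2 1 had 243.3 CPM. KPH2 2 and KPH2 4 were below all 4 KP tumours, while KPH2 3 and KPH2 1 lay among them. The KP mean was 343.3 ± 238.7 CPM (SD, n = 4), against 112.4 ± 86.5 CPM in KPH2 2 to KPH2 4 (SD, n = 3).

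Rian, a long non-coding RNA that hosts snoRNAs in its introns, followed Meg3 tumour by tumour. It was at 513.8, 267.1, 165.4 and 145.9 CPM in KP 5 to KP 8, at 43.3, 185.6 and 76.0 CPM in KPH2 2 to KPH2 4 and at 214.5 CPM in KPH2 1. The ratio of Rian to Meg3 stayed between 0.749 and 0.960, a 1.28-fold range, while each gene alone ranged 11.9-fold and 14.9-fold. KP 5 was the highest and KPH2 2 the lowest tumour for both.

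Mirg, the host transcript of the distal microRNA cluster, was lower in level and had the same order of tumours as Rian. Its levels were 21.9, 11.9, 9.49 and 4.00 CPM in KP 5 to KP 8, 1.80, 9.81 and 3.94 CPM in KPH2 2 to KPH2 4 and 10.4 CPM in KPH2 1. KP 8 lay close to KPH2 4 at the low end, and KPH2 3 was above KP 7 and KP 8, so the groups overlapped. The ratio of Mirg to Meg3 ranged 1.85-fold over the tumours.

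Rtl1 encodes a retrotransposon-derived protein needed in the placenta and in muscle, and its row lies opposite the maternal transcripts. It was at 33.9, 15.3, 12.3 and 6.34 CPM in KP 5 to KP 8, at 2.79, 13.8 and 3.72 CPM in KPH2 2 to KPH2 4 and at 13.2 CPM in KPH2 1. Although it is a paternal gene like Dlk1, its row moved with Meg3, at a ratio between 0.0417 and 0.0657. The setting for strand in the counting is not given in the sources used here, so reads of Rtl1 and of transcripts running opposite to it cannot be told apart in this row.

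Dio3, the deiodinase that inactivates thyroid hormone, was near the limit of detection and had a pattern of its own. It had 22, 1, 2 and 26 counts in KP 5 to KP 8, 7, 26 and 1 counts in KPH2 2 to KPH2 4 and 3 counts in KPH2 1. In CPM these were 1.63, 0.141, 0.296 and 1.96 in KP, and 0.630, 2.602 and 0.113 in KPH2 2 to KPH2 4. KP 5, KP 8 and KPH2 3 were thus above the rest, 2 of them from KP and 1 from KPH2. With 1 to 3 counts in 4 libraries, differences among the low tumours were not detectable at this depth.

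**Figure D1:**
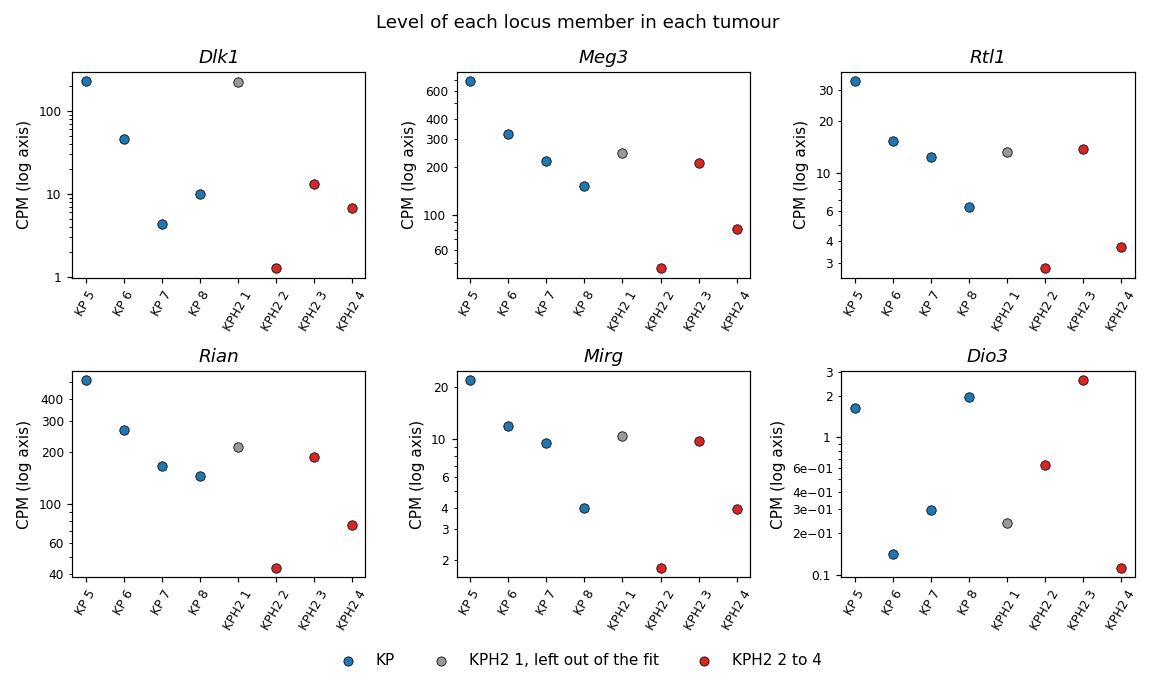
Level of each of the 6 genes in CPM (log axis) in each tumour, with KP in blue, KPH2 2 to KPH2 4 in red and KPH2 1 in grey. Each point is 1 library. KP 5 is the highest tumour for Meg3, Rtl1, Rian and Mirg and KPH2 2 the lowest, Dlk1 has KP 5 and KPH2 1 together near 230 CPM, and Dio3 stays at or below 2.602 CPM.

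Per length, Dlk1 and Meg3 changed places between tumours. Divided by the exon length of the GENCODE transcripts that are paired with RefSeq (4785 bases for Dlk1 and 15684 bases for Meg3), Dlk1 was at 47.9 CPM per kb in KP 5 and 47.4 in KPH2 1, against 43.7 and 15.5 CPM per kb for Meg3 in the same tumours. In KPH2 2 the levels per length were 0.263 CPM per kb for Dlk1 and 2.93 for Meg3, and in KP 7 they were 0.899 and 13.8. The ratio of Meg3 to Dlk1 in CPM accordingly ran from 1.07 in KPH2 1 to 50.2 in KP 7. Mirg, at 1300 bases, lay between 1.38 and 16.8 CPM per kb, and Dio3 was at or below 1.28 CPM per kb in every tumour. Rian had no transcript paired with RefSeq and has no level per length here.

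Among the 6 genes, the 4 that lie from Meg3 to Mirg formed the closest group over the tumours. On log2 CPM over all 8 tumours, Meg3 correlated with Rian at Pearson r = 0.997 (Spearman rho 0.976), with Rtl1 at 0.983 (rho 0.929) and with Mirg at 0.969 (rho 0.976). Without KP 5 and KPH2 2, the tumours farthest from the median of Meg3, these r values were 0.989, 0.963 and 0.894 over 6 tumours. Dlk1 correlated with Meg3 at 0.822 (rho 0.833), and at 0.820 without KP 5 and KPH2 1. Dio3 correlated with Meg3 at 0.210 (rho -0.0476) and with Dlk1 at 0.0284. These values describe 8 libraries of mixed genotype that differ in sequencing depth and may differ in cell make-up, and carry no test.

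Between Dlk1 and Dio3 the table holds 56 microRNA genes, of which 44 had counts and 12 were at 0 in all 8 libraries. A row of this kind counts fragments of ribosomal-RNA-depleted total RNA over a hairpin and is not a level of mature microRNA. Summed over the 56 genes, the level was 57.3, 24.2, 15.4 and 10.6 CPM in KP 5 to KP 8, 6.12, 20.2 and 7.66 CPM in KPH2 2 to KPH2 4 and 18.6 CPM in KPH2 1. KP 5 was again highest and KPH2 2 lowest, and the sum correlated with Meg3 at r = 0.973 over 8 tumours. The 4 snoRNA genes in Rian summed to 22.0, 16.0, 9.19 and 4.53 CPM in KP 5 to KP 8, 0.900, 6.40 and 3.16 CPM in KPH2 2 to KPH2 4 and 9.75 CPM in KPH2 1.

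Values for sections of the array are given without a test. The 7 hairpin genes between Meg3 and Rian that lie outside exons summed to 20.3, 6.93, 4.45 and 5.51 CPM in KP 5 to KP 8, 1.71, 5.80 and 2.14 CPM in KPH2 2 to KPH2 4 and 6.31 CPM in KPH2 1, so the groups overlapped. Mir3070a, whose products are printed above, held 69, 17, 7 and 22 counts in KP 5 to KP 8, 2, 15 and 3 counts in KPH2 2 to KPH2 4 and 18 counts in KPH2 1. Mir3070b held 71, 8, 8 and 24 counts in KP, 5, 15 and 6 counts in KPH2 2 to KPH2 4 and 26 counts in KPH2 1. The distal genes from Mir379 to Mir3072 summed to 33.0, 15.7, 9.93 and 4.15 CPM in KP 5 to KP 8 and to 3.78, 12.6 and 4.85 CPM in KPH2 2 to KPH2 4. KP 8 stood lower among the tumours in the distal genes, where it lay below KPH2 4, than in the proximal genes, where its 5.51 CPM was close to the 5.80 CPM of KPH2 3.

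Of the 12 rows at 0, 7 lay in a single exon. GENCODE places an exon of Rtl1 of 6296 bases at chr12:109589193-109595488 on the minus strand. All 7 hairpin genes inside it on either strand, Mir431, Mir433, Mir127, Mir434, Mir432, Mir3071 and Mir136, had 0 counts in all 8 libraries, which allows up to 3 counts each. All 7 hairpin genes of the same interval that lie outside exons of the 6 genes had counts, from 29 to 163 over the 8 tumours. Mir3070b, the highest, ends close to the border of that exon. Of 4 hairpin genes inside exons of Mirg on the same strand, 1 was at 0 (Mir410), as was 1 of 5 that overlap such an exon in part (Mir412). Mir666 and Mir544, which had counts, were not placed against exons. Mir770, in an exon of Meg3, was at 0 as well. The remaining rows at 0 were Mir1906-1, near the start of Meg3, whose mature sequence is also listed on the X chromosome, and Mir1247, beside Dio3 and outside exons of the 6 genes. Counting of unique alignments per gene leaves out a read that falls on more than 1 gene, and whether this set the zeros was not tested. So miR-127, miR-136, miR-431, miR-433 and miR-434, whose sequences are given above, have no value in these libraries.

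**Figure D2:**
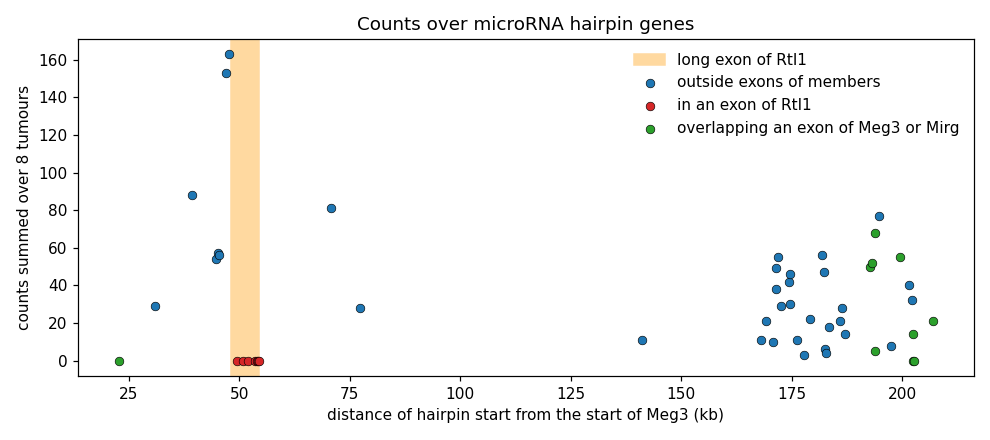
Counts summed over the 8 tumours (vertical axis) for each microRNA hairpin gene against its distance from the start of Meg3 in kb. Red points, inside the shaded long exon of Rtl1, are all at 0, green points overlap exons of Meg3 or Mirg, and blue points lie outside exons of the 6 genes and reach 163 counts. Mir1906-1 and Mir1247, both at 0, and Mir666 and Mir544, with 24 and 30 counts, are not drawn.

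**Figure D3:**
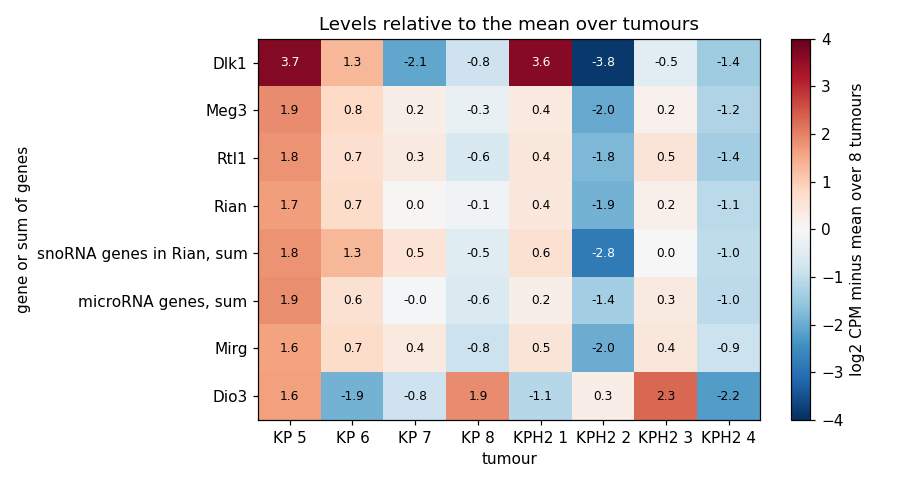
Log2 CPM minus the mean over the 8 tumours for the 6 genes and for the sums over snoRNA and microRNA genes, in order along the chromosome, 1 column per tumour. Meg3 to Mirg share their colours in each tumour, Dlk1 departs upward in KPH2 1, and Dio3 is highest in KPH2 3.

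The comparison of KPH2 with KP asks what loss of HIF-2α did to expression in UPS. In the fit over 7 tumours the log2 fold change (KPH2 minus KP) was -3.37 for Dlk1 (standard error 1.42), -1.61 for Meg3 (0.66), -1.43 for Rian (0.60), -1.33 for Rtl1 (0.71), -1.19 for Mirg (0.68) and 0.04 for Dio3 (1.004). 5 of the 6 values were thus negative and 1 was close to 0. None of the 6 genes was called at an adjusted p below 0.05 by edgeR, where 1.96% of the 14867 tested genes were called. DESeq2 called none of the 6 either, against 7.2% of its tested genes. At an unadjusted p below 0.05 and lower in KPH2, edgeR counted 3 of the 6 (Dlk1, Meg3 and Rian), where the share over all tested genes was 9.26%. The groups overlapped in CPM for all 6 genes, while they did not for 16.9% of the tested genes. The genes were chosen on this contrast, so nothing is read from these counts.

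The size of these differences moved with single libraries. With KPH2 1 included, Dlk1 went to -0.22 (standard error 1.54), Meg3 to -1.24, Rian to -1.07, Rtl1 to -1.02 and Mirg to -0.86, Dio3 was too low to be tested, and 0 of the 5 tested members were called, where 0.00675% of 14805 genes were. Without KP 5, Dlk1 went to -1.5, Meg3 to -1.02, Rian to -0.92, Rtl1 to -0.72 and Mirg to -0.69. Without KPH2 3, the values of the same genes were -4.21, -2.44, -2.20, -2.39 and -2.05. Dio3 turned to -1.46 without KPH2 3 and rose to 0.56 without KPH2 4, so its direction changed with the library left out.

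**Figure D4:**
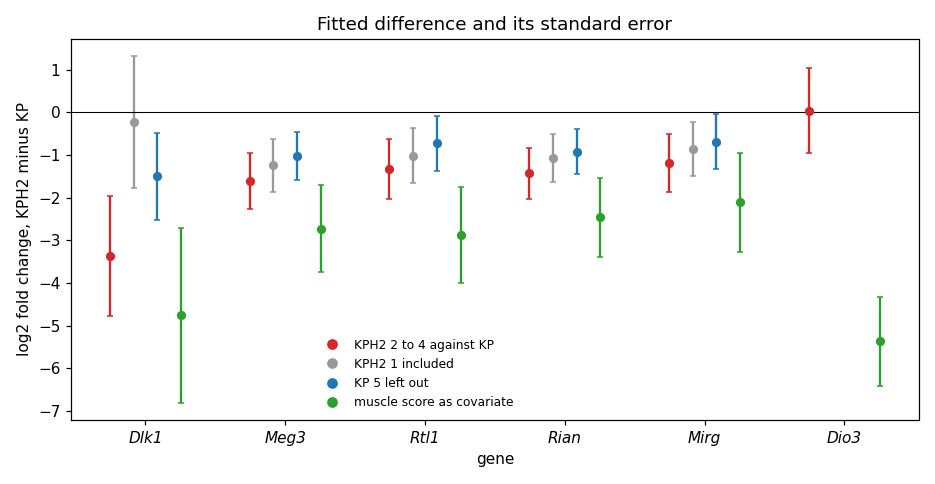
Fitted log2 fold change (KPH2 minus KP) of each gene with its standard error, for the 7 tumours, with KPH2 1 included, without KP 5, and with a muscle marker score as covariate. The 5 genes from Dlk1 to Mirg stay below 0 in each of these fits, Dlk1 moves closest to 0 with KPH2 1 included, and Dio3, which was not tested with KPH2 1 or without KP 5, falls far below 0 with the covariate.

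The spread between tumours was larger inside the locus than in most genes around it. Within 1 Mb on either side of the stretch from Dlk1 to Dio3 the table holds 91 other rows, of which 27 were tested. The 22 tested rows in the flanks had a median SD of 0.31 in log2 CPM over the 8 tumours, close to the median of 0.36 over all tested genes, whereas the 5 tested small RNA rows inside had SDs between 0.94 and 1.46 and the 6 members between 1.09 and 2.63. Dync1h1, the dynein heavy chain beyond Dio3, had 7469 to 15300 counts and an SD of only 0.14. Begain, a postsynaptic scaffold gene upstream of Dlk1, was the flanking gene with the largest SD, 0.92, with 55, 13, 9 and 15 counts in KP 5 to KP 8, 4, 15 and 15 in KPH2 2 to KPH2 4 and 45 in KPH2 1. Its high tumours, KP 5 and KPH2 1, were also those of Dlk1, though at low counts.

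None of the 27 tested neighbours was called by edgeR, and 6 had an unadjusted p below 0.05, where 17.8% of all tested genes did. The 4 with the smallest p were the snoRNA genes AF357425 (log2 fold change -2.31, adjusted p = 0.13) and AF357359 (-1.80, adjusted p = 0.209), the sphingolipid hydroxylase gene Degs2 (-0.82, adjusted p = 0.217) and the chaperone gene Hsp90aa1 (0.40, adjusted p = 0.237). AF357425 held 60, 20, 13 and 13 counts in KP 5 to KP 8, 2, 9 and 4 in KPH2 2 to KPH2 4 and 19 in KPH2 1. In CPM, KPH2 2 to KPH2 4 lay narrowly below every KP tumour, with 0.901 in KPH2 3 against 0.981 in KP 8. The groups likewise did not overlap for 16.9% of all tested genes. DESeq2 called 1 neighbour, AF357425, where it called 7.2% of its tested genes. Between Dlk1 and Dio3, 5 of 63 neighbours passed the count filter, most of them through their higher counts in KP. All 5 had negative values, with a median of -1.94, and this direction is not independent of the filter. The median was 0.08 in the flanks and -0.02 over all tested genes. Whether reads of these 5 rows came from the transcripts of Meg3 and Rian was not tested.

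**Figure D5:**
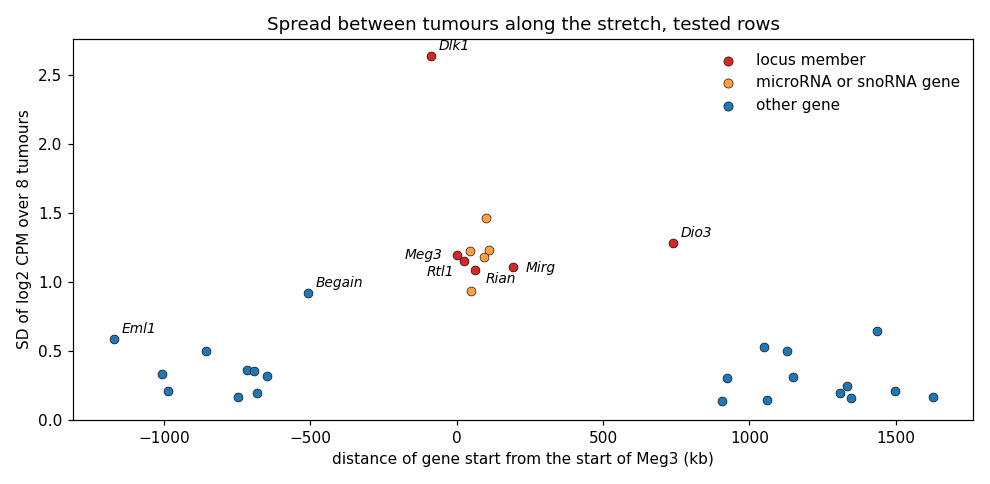
SD of log2 CPM over the 8 tumours (vertical axis) for each tested row, against the distance of its start from the start of Meg3 in kb. Members (red) and small RNA genes (orange) lie at 0.94 or above, and flanking genes (blue) reach 0.64 at most except Begain at 0.92.

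Of 32 imprinted genes at other loci, 27 were tested, 19 had higher and 8 lower values in KPH2, and the median log2 fold change was 0.21. By edgeR 9 had an unadjusted p below 0.05, against 17.8% of all tested genes, and 1 was called, against 1.96%. That gene was Zim1, a zinc finger gene of the Peg3 cluster, with 16.4, 12.8 and 5.30 CPM in KPH2 2 to KPH2 4, 0.141 to 0.226 CPM in KP and no count in KPH2 1 (log2 fold change 5.80, adjusted p = 0.00514), and it was too low to be tested with KPH2 1 included. The genes that keep imprints, such as DNA methyltransferases and KRAB zinc finger factors, had 18 tested members with a median of -0.13. At an unadjusted p below 0.05 there were 3, against 17.8% of all tested genes, and 1 was called, against 1.96%. That gene was Dnmt3l, the cofactor of the de novo methyltransferases (log2 fold change -3.02, adjusted p = 0.0377). It was near the floor, with 147 counts over the 8 libraries. Its levels were 1.34, 3.25, 2.08 and 4.45 CPM in KP 5 to KP 8, 0.360, 0.300 and 0.338 CPM in KPH2 2 to KPH2 4 and 1.84 CPM in KPH2 1. None of the 12 listed genes called over 7 tumours, in these and the following lists, was called with KPH2 1 included, where 10 were tested and the smallest adjusted p was 0.127, and Dnmt3l then stood at -1.91 (adjusted p = 0.246). Trim28 and Zfp57, which act together at the methylated allele of imprinted control regions, were at 189 to 288 and 6.87 to 18.2 CPM.

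Genes that act around the products of the locus were read from 3 lists. For DLK1, 14 tested partners and adipogenic genes had a median of -0.27 and none was called, with 5 at an unadjusted p below 0.05, where 17.8% of all tested genes were. The 2 with the smallest p were Notch4 (log2 fold change -1.11, adjusted p = 0.111) and Cebpd, an early factor of fat cell differentiation (-1.67, adjusted p = 0.16). Adipoq and Plin1, products of mature fat cells, were at or below 2.41 CPM in every tumour. For Dio3, 9 tested genes of thyroid hormone handling had a median of 0.12, 3 had an unadjusted p below 0.05 and 1 was called, against 1.96% of all tested genes, namely Hr, a corepressor of the thyroid hormone receptor (log2 fold change 2.53, adjusted p = 0.0261), at 0.849 to 2.08 CPM in KP 5.04 to 12.4 CPM in KPH2 2 to KPH2 4 and 2.72 CPM in KPH2 1. The activating deiodinase gene Dio2 was at 16.9 to 43.0 CPM, above Dio3 in each tumour, and Dio1 had no count. For the microRNA array, 7 tested processing genes had a median of 0.01, none was called and none had an unadjusted p below 0.05. The 2 with the smallest p were Xpo5 (0.26, adjusted p = 0.357) and Drosha (0.20, adjusted p = 0.616).

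MEF2 factors are known activators of this cluster in muscle. None of the 3 tested MEF2 genes was called, with log2 fold changes of 0.38 for Mef2a, 0.53 for Mef2c and -0.36 for Mef2d (adjusted p = 0.272, 0.482 and 0.518). In the whole list of MEF2 and myogenic genes, of 9 tested genes, 8 had higher values in KPH2, with a median of 2.08. At an unadjusted p below 0.05 there were 7, against 17.8% of all tested genes, and 3 were called, against 1.96%, namely Myf5 (5.59, adjusted p = 0.0418), Myf6 (2.51, adjusted p = 0.0212) and Six4 (1.09, adjusted p = 0.0499). Levels of muscle markers are given beside these values. The 20 adult skeletal muscle markers summed to 1820 to 3320 CPM in KP, 4270 to 19200 CPM in KPH2 2 to KPH2 4 and 1490 CPM in KPH2 1, and 2 of the 20 were called, both higher, the sarcomere gene Neb (2.23, adjusted p = 0.043) and the muscle enolase gene Eno3 (2.98, adjusted p = 0.00922). All 20 had positive values, with a median of 2.10. Their mean log2 CPM was 5.50, 4.37, 4.37 and 5.39 in KP 5 to KP 8, 7.36, 7.98 and 5.67 in KPH2 2 to KPH2 4 and 4.29 in KPH2 1. KPH2 3, the tumour with the most muscle RNA, had a middle level of Meg3, and KPH2 2, with the next highest score, had the lowest. With this score as a covariate the log2 fold changes were -4.75 for Dlk1 (standard error 2.05), -2.73 for Meg3 (1.02), -2.46 for Rian (0.93), -2.87 for Rtl1 (1.13) and -2.11 for Mirg (1.17). That of Dio3 turned to -5.36, while the genes called over the whole table went from 292 to 3. Every KP score was below every score of KPH2 2 to KPH2 4, so this fit cannot separate muscle RNA from genotype.

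Other cell types were read from their marker lists. The 8 mesenchyme and fibroblast markers had 7 negative values and 1 called, Pdgfra, a receptor of mesenchymal progenitors (log2 fold change -2.02, adjusted p = 0.0183, and -1.54 with adjusted p = 0.16 with KPH2 1 included). Pdgfra was at 1490, 923, 720 and 849 CPM in KP 5 to KP 8, 224, 274 and 239 CPM in KPH2 2 to KPH2 4 and 639 CPM in KPH2 1, and over the 8 tumours it correlated with Meg3 at r = 0.835. The other 7 markers of the list had r between 0.0888 and 0.628 with Meg3, and the sum of the list 0.604. The sums of other lists correlated with Meg3 at -0.705 (satellite cell), -0.521 (MEF2 and myogenic genes), -0.440 (adult muscle), -0.315 (regenerating muscle), 0.336 (macrophage) and 0.140 (endothelium), all over the same 8 tumours and without a test. Of 6 tested endothelial markers 5 had negative values, as did all 6 tested macrophage markers, and none of either list was called. The regenerating muscle list had 1 of 7 called (Myl4, higher) and the satellite cell list 2 of 4 (Myf5 and Vcam1, higher), against 1.96% of all tested genes. In the satellite cell list, Chodl was lower (-0.84) and Fgfr4 higher (2.01), neither called, and Pax7 and Calcr were too low to be tested. Vcam1, at 44.7 to 301 CPM, made up most of the sum of that list, 79.2 to 323 CPM. At an unadjusted p below 0.05 there were 6 of 7 and 2 of 4 in these lists, 4 of 6 in the macrophage list, 2 of 6 in the endothelial list, 2 of 8 in the mesenchyme list and 19 of 20 in the adult muscle list, against 17.8% of all tested genes. The pituitary and neuroendocrine list, from tissues that express the locus strongly, summed to between 1.44 and 3.56 CPM, and the adipocyte list to between 4.60 and 28.8 CPM. The part of any of these cells in the levels of the locus was not tested.

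Genes elsewhere in the genome followed the locus closely over the 8 tumours. Among 12060 genes with a mean log2 CPM of at least 2, the 8 most like Meg3 were 4932415G12Rik, Slc2a13, Reck, Cpm, D6Wsu163e, Bambi, Negr1 and Dchs1, with r from 0.952 to 0.974. The r of Meg3 was higher with Rian (0.997) and Rtl1 (0.983) than with any of these, while 4932415G12Rik (0.974) and Slc2a13 (0.971) were above its r of 0.969 with Mirg. The 8 most like Dlk1 were A230073K19Rik, Gm14325, Zfp958, Exoc3, Cwf19l1, Asxl3, Cdc7 and Rps6kb1, with r from 0.940 to 0.984, and the lists had no gene in common. With 8 tumours and this many genes, 1% of all genes had an r with Meg3 above 0.853 and with Dlk1 above 0.849, so these names describe the tumours only.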

How the data were processed

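Tumour RNA from 4 KP and 4 KPH2 mice was sequenced as stranded, ribosomal-RNA-depleted libraries. The authors deposited raw counts per gene, made with STAR 2.4 on GRCm38 and htseq-count (HTSeq 0.6.1) over RefSeq genes, per the submitters' processing notes, and log2 values from the regularized log transformation of DESeq2 1.6, which were read but not tested. The main test was that of edgeR 4.0.16 in R 4.3.3, on the deposited counts (TMM factors, minimum count 10 and minimum total count 15, robust quasi-likelihood test, no covariate) over KP 5 to KP 8 and KPH2 2 to KPH2 4. P-values were adjusted by Benjamini-Hochberg across the whole table of tested genes. DESeq2 1.42.0, other factors and filters, a muscle score, all 8 tumours and leaving out each tumour were alternatives. Log2 CPM used a prior count of 2.

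An allele that both groups share and the result of a marker list are not reported here. The members, the gene lists and the tests were chosen with earlier results of these data known. Named beside the 6 members are called genes of each list, otherwise (outside marker lists) the 2 with the smallest p, the 4 neighbours with the smallest p, and the 8 genes most like Meg3 and like Dlk1. Begain, Dync1h1, Mef2a, Mef2c, Mef2d, the hairpin genes at 0, Mir3070a, Mir3070b, Trim28, Zfp57, Adipoq, Plin1, Dio1 and Dio2 were named after their values were seen. Neighbours, positions and sequences are from RefSeq GRCm38.p6 and exons from GENCODE vM21, the build of the counts. On simulated counts for this comparison, with 200 of 14676 genes changed by 2 on the log2 scale, edgeR recovered 161 with 11 false calls, and DESeq2 191 with 53. The changed genes were drawn at random from those above a minimum mean count, each with its own fitted dispersion. Their recovery is not that of the 6 members, whose SD was above that of at least 92.3% of tested genes.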

Additional observations from a re-analysis of the deposited data

Results flagged for a closer look

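Dlk1 in KPH2 1 was flagged as a sample far from the others of its group. Its level of 227 CPM stood apart from the 13.2, 6.76 and 1.26 CPM of KPH2 3, KPH2 4 and KPH2 2, and the gap to the nearest tumour was 0.947 of the whole range of the group, above Dixon's critical value for 4 samples. It was the only flag among 12 groups of 4 tumours, the 6 genes in KP and in KPH2. Chance flags about 1 in 20 groups of normally distributed values, which these CPM values need not be, and the genes were chosen on these same levels. On log2 CPM the gap was 0.548 of the range and was not flagged. KP 5 for Dlk1 reached 0.815 on CPM, just under the critical value. KPH2 1 is the tumour that the 7-tumour table leaves out. Its Meg3, Rian, Rtl1 and Mirg were within the range of the other tumours.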

How the results depend on the processing

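No paired analysis was possible because the KP and KPH2 tumours share no replicate number. None of the 6 members was called under any of the 14 alternatives, and Dlk1, Meg3, Rian, Rtl1 and Mirg kept negative values in all of them, from -4.75 to -0.22 for Dlk1 and from -2.73 to -1.02 for Meg3. Dio3 was fitted in 10 and turned negative in 4, at -5.36 with the muscle score, -0.28 without KP 6, -0.23 without KP 7 and -1.46 without KPH2 3, and its highest value was 0.563 without KPH2 4; the cause was not tested. Neighbours called stayed at 0 except for 1 with DESeq2. Imprinted genes elsewhere, 1 in the main fit, went to 0 with all 8 tumours and with the muscle score, 3 with no low-count filter and 6 with DESeq2, and to between 1 and 3 when a tumour was left out. Genes called over the table, 292, went to 1 with all 8 tumours, 3 with the muscle score and 1175 with DESeq2, and to between 55 and 349 when a tumour was left out, the fewest without KPH2 2. The median of all genes moved by less than 0.1 under each scaling. Dio3, with 88 counts in all, and most hairpin genes are limited by depth.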
